A study of Drosophila melanogaster with 2 samples.

Results

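The 9 genes described here control the passage of Drosophila cells through G1 and into S phase: the transcription factors E2f1, E2f2 and Dp, the retinoblastoma-family protein Rbf, the cyclins CycE and CycD, the kinases Cdk2 and Cdk4, and the kinase inhibitor dap. They were chosen by name for that role, with earlier results of these data known, so their counts are no independent evidence. They are 9 of the 13968 protein-coding genes on the chromosome arms in the Ensembl annotation. The study mapped the chromatin occupied by the CG3032 protein by chromatin immunoprecipitation and sequencing (ChIP-seq) with an antibody against GFP. The samples were whole prepupae aged 24 hours, males and females together, from a transgenic line that stably carries CG3032 with GFP (eGFP) at its C-terminus, in 2 biological replicates numbered 2 and 3. There was 1 genotype and 1 stage, so no contrast between conditions exists, and the values answer where the tagged protein was found near these genes and how well the replicates repeated it. Because whole animals were used, strong occupancy in a few cells and weak occupancy in many cannot be told apart.

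In the fly, E2f1 paired with Dp activates the genes of DNA replication, while E2f2 paired with Dp mostly represses. Rbf binds E2f proteins and holds them inactive until cyclin-kinase complexes phosphorylate it: CycD with Cdk4, which in flies also drives growth, and CycE with Cdk2, which triggers S phase and is blocked by the p21 and p27 relative encoded by dap. During metamorphosis these proteins set which imaginal and abdominal precursor cells keep dividing and when differentiating cells leave the cycle.

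The sequences at the strongest E2f1 and CycE summits are shown first because these are the summits on which the account turns, and that of Cdk2 because its summit lies next to a start site. A summit is the position of highest signal in a peak. Each sequence is written 5′ to 3′ on the strand of the gene, from the RefSeq copy of dm6. Capitals mark unbroken runs of at least 8 A or T bases in E2f1 and CycE, and in Cdk2 the word TATCGATA, the DNA replication-related element (DRE), a promoter motif known from replication genes. The first 4 are centred on E2f1 intron summits, the fifth on the strongest CycE summit, also in an intron, and the last covers the Cdk2 summit and stops at the base before the start site.
E2f1, 3R:21651176-21651276, minus strand: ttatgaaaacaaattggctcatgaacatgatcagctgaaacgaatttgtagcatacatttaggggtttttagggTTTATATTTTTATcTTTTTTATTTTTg
E2f1, 3R:21650263-21650363, minus strand: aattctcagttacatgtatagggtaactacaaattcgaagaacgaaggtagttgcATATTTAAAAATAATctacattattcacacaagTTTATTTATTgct
E2f1, 3R:21649615-21649715, minus strand: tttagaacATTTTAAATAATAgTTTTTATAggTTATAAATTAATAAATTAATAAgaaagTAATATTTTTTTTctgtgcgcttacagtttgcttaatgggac
E2f1, 3R:21641690-21641790, minus strand: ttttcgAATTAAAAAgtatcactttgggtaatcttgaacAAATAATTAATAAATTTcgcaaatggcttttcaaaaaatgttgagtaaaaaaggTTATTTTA
CycE, 2L:15747063-15747163, minus strand: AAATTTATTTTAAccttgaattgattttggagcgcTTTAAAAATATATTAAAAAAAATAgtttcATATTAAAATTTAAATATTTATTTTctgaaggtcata
Cdk2, 3R:20735553-20735622, plus strand: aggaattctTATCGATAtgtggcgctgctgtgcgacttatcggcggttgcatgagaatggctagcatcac

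Values come from 4 peak lists that the authors deposited: 30000 peaks for each replicate, 30000 for the whole series and 8170 that passed a threshold on the irreproducible discovery rate (IDR), a measure of how well peak ranks repeat between replicates. The IDR peaks are the 8170 strongest of the whole-series list, with signals of 150.5 to 7902 and a median of 301.5. Median signal was 29.4 in replicate 2, 52.3 in replicate 3 and 73.1 in the whole-series list. The signal is the authors' own value with no stated scale, so it is read only within a list, with the peak's rank (1 is strongest), and replicates are compared by position and rank. The lists hold no read counts, so depth is unknown and no SD can be given for a gene. Below, a signal with no list named is from the IDR list, a promoter summit lies within 500 bp of an annotated transcription start site (TSS), and a negative distance is upstream.

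An IDR promoter summit was present at 4 of the 9 genes, E2f1, Dp, Cdk2 and dap. Across all protein-coding genes the share was 26.9% (3763 of 13968). With a window of 200 bp the count was 2 (Dp and Cdk2), beside 19.5% of all genes. With summits anywhere inside the gene added, CycE and Cdk4 joined them and 6 of 9 had an IDR summit, beside 31.9% of all protein-coding genes. E2f2, Rbf and CycD had none. In the longer whole-series list all 9 genes had a promoter summit, where 49.1% of protein-coding genes had one. Genes with several start sites offer more windows: the share with an IDR promoter summit was 21.1% for genes with 1 TSS position and 43.2% for genes with more, and among the 9 genes it was 2 of 4 (Cdk2 and dap, not Rbf and CycD) and 2 of 5 (E2f1 and Dp, not E2f2, CycE and Cdk4). With so few genes these shares are counts, with no test.

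The 21 IDR summits at these genes were unevenly spread: 11 lay at E2f1, 4 at Dp, 2 each at CycE and dap, and 1 each at Cdk2 and Cdk4. Of the 21, 17 lay in introns, 8 were promoter summits and 13 were not. The same shares over all IDR summits were not computed, so these counts only describe the 9 genes. Their median signal was 349, and 12 exceeded the median of the whole IDR list. Among the strongest 10% of the list (817 of 8170 summits) were 6 of the 21: 4 at E2f1, 1 at Dp and 1 at CycE. The 9 genes carried 0.235 IDR summits per kb of gene, against 0.0819 over all protein-coding genes, and E2f1 supplied more than any other of them. The 9 genes are also longer, with a median length of 4390 bp against 2164.5 bp.

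**Figure D1:**
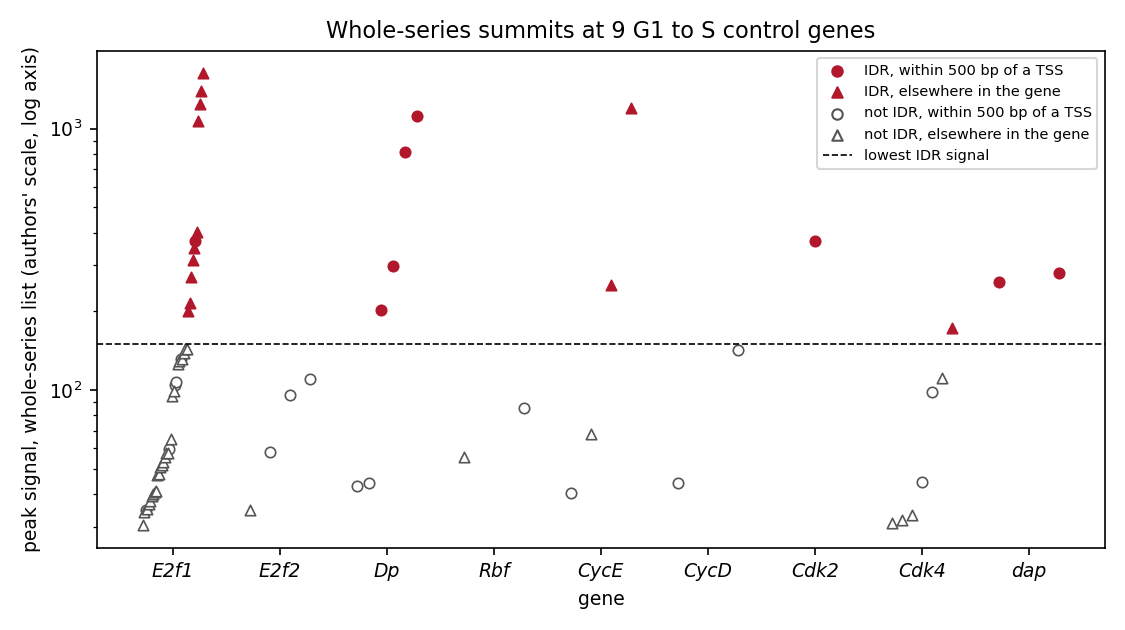
Signal of every whole-series summit at the 9 genes (vertical log axis, authors' scale), 1 column per gene; filled symbols are also in the IDR list, circles are promoter summits, triangles lie elsewhere in the gene, and the dashed line is the lowest IDR signal (150.5). E2f1 has the highest summit and the most, all strong E2f1 summits are triangles, and no symbol of E2f2, Rbf or CycD lies above the line.

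E2f1, which encodes the activating E2F, had its strongest summits inside the gene, with weaker ones at its start sites. The gene (FBgn0011766) lies at 3R:21620304-21660871 on the minus strand, spans 40568 bp and has 5 TSS positions and 6 annotated transcripts. Of its 11 IDR summits 10 lay outside the promoter windows, and 9 lay more than 3 kb from any TSS of the gene. A 14672-bp intron near the 5′ end held 6, the 7021-bp intron that follows held 2, a 4679-bp intron held 2 and a 5282-bp intron held 1.

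The strongest E2f1 summit, at 3R:21651226, had a signal of 1627 and rank 308, in the top 3.77% of the IDR list and 5.40 times its median. It lay 9206 bp downstream of the nearest TSS, with a signal of 672 in replicate 2 (rank 179) and 948 in replicate 3 (rank 442). Within the same intron, 913 bp and a further 648 bp downstream along the gene, stood summits with signals of 1240 (rank 580) and 1065 (rank 762). Their signals were 497 in replicate 2 and 756 in replicate 3 for the stronger, and 394 in replicate 2 and 689 in replicate 3 for the weaker. In each replicate these 3 summits kept the same order of signal, and all ranked 814 or better.

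The fourth strong summit, at 3R:21641740 in the 7021-bp intron, had a signal of 1395 (rank 458), with 476 in replicate 2 (rank 429) and 923 in replicate 3 (rank 471). It lay 3246 bp upstream of the nearest TSS. The other 7 E2f1 summits were much weaker, between 201 and 402, and included the promoter summit, which had a signal of 372 (rank 3305) 263 bp upstream of the internal TSS at 21633073. That promoter summit had a signal of 98.1 in replicate 2 and 276 in replicate 3. At the first TSS of E2f1 the whole-series list held a summit at −114 bp with a signal of 107 (rank 11047), too weak for the IDR list, with 22.8 in replicate 2 and 86.1 in replicate 3.

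Long genes hold more summits, so E2f1 was set beside the 351 protein-coding genes within 25% of its length. These had a median of 1 IDR summit and at most 14, and 8 of them (2.28%) had 11 or more. Over all protein-coding genes 55 had at least 11. The close grouping of strong summits was also uncommon. A signal of at least 1065, that of the weakest of the 3 neighbouring E2f1 summits, was reached by 762 IDR summits. At only 2 loci did 3 of them fall within 2 kb: E2f1 and 3L:3394750-3396264, where the middle summit lay over no gene. The limit of that count was set from E2f1's own values, so it is a description. Noncoding genes with a start close to weaker E2f1 summits were mir-11 and mir-998, microRNAs that lie in an E2f1 intron, and asRNA:CR46055, lncRNA:CR46056 and lncRNA:CR46057. In replicate 3 a summit near mir-998 alone had a signal of only 25.7, and one near both mir-11 and mir-998 had 20.3. Neither had a counterpart in the other lists.

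**Figure D2:**
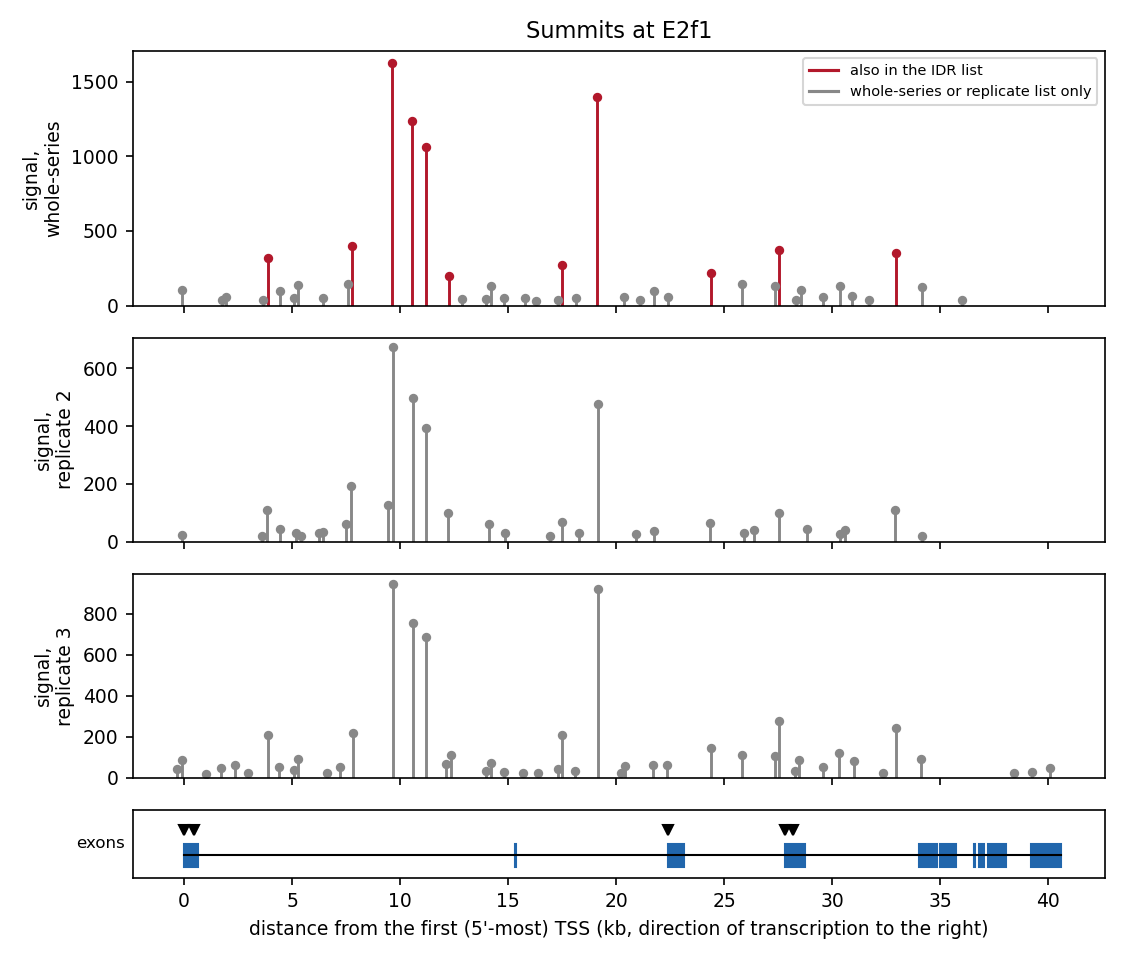
Summits along E2f1 from its first TSS (horizontal axis in kb, transcription to the right), with stem height as signal (authors' scale, 1 scale per list) in the whole-series list, replicate 2 and replicate 3; red stems are also in the IDR list, boxes are exons and triangles are TSSs. The group of 3 tall stems near 10 kb and the single tall stem near 19 kb stand in introns in every list, while the stems at the TSSs are short.

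Dp, the partner that E2f1 and E2f2 need to bind DNA, had the strongest promoter summit of the 9 genes. The gene (FBgn0011763, 2R:13222433-13228202, plus strand) has TSSs at 13222433, 13223591 and 13225322. The strongest summit, at −217 bp from the middle TSS, had a signal of 1122 (rank 688), with 416 in replicate 2 (rank 584) and 712 in replicate 3 (rank 770). It lay in a 478-bp intron of the transcripts that start further upstream. Also near that TSS, 435 bp downstream, was a summit with a signal of 817 (rank 1196), with 215 in replicate 2 and 621 in replicate 3. It lay 436 bp from the start of the noncoding gene lncRNA:CR43918.

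A weaker Dp summit, at −476 bp from the last TSS, had a signal of 299, with 132 in replicate 2 and 150 in replicate 3. It lay 384 bp upstream of lncRNA:CR43918. The weakest IDR summit of Dp, with a signal of 203, lay 32 bp upstream of the first TSS. It lies inside the neighbouring gene Fsn, 58 bp downstream of the Fsn TSS, so it cannot be given to either gene alone. Replicate 2 had 57.4 there and replicate 3 had 154. With 4 IDR summits Dp exceeded most genes of its size. Of the 1404 genes within 25% of its length 11 (0.783%) had 4 or more, and their median was 0. The 4 at Dp include the summit shared with Fsn. Genes were matched by length alone, not by their number of TSS positions.

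The promoter summits nearest to Dp's in IDR rank were those of CG44838 (signal 1131, 9 ranks above), rdgC (1125, 3 ranks above), CG32137 (1116, 6 ranks below) and Hnf4 (1110, 10 ranks below). Likeness here is the rank difference alone. In replicate 2 their signals were 350 for CG44838, 358 for rdgC, 401 for CG32137 and 410 for Hnf4, beside 416 for Dp, the highest of them. In replicate 3 they were 788 for CG44838, 756 for rdgC, 629 for CG32137 and 716 for Hnf4, beside 712 for Dp, so the order differed between the replicates.

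E2f2, the repressing E2F (FBgn0024371, 2L:21154293-21156749, minus strand), had no IDR summit. Its strongest whole-series promoter summit had a signal of 110 (rank 10796) at −9 bp from the internal TSS at 21156232, and the gene Mpp6 starts so close that the summit was also at −47 bp from the Mpp6 TSS. Replicate 3 also had its strongest summit there, with 69.0 at −16 bp from the internal TSS, while that of replicate 2 lay at +188 bp from the first TSS at 21156749, with 71.1. All 3 longer lists held a summit at the first TSS, with 96.0 at −39 bp in the whole-series list, 36.0 at −33 bp in replicate 2 and 56.5 at −43 bp in replicate 3. These lay inside Mpp6, at −57, −63 and −53 bp from its nearest TSS in the same order. The replicate 2 summit at +188 bp was also inside Mpp6, so none of these can be given to E2f2 alone. Of the 2704 genes of like length 30.3% had any IDR summit.

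Rbf, the retinoblastoma-family repressor (FBgn0015799, X:797090-801479, minus strand), likewise had none. Its strongest promoter summit had a signal of 85.3 (rank 13226) at −137 bp in the whole-series list, 44.7 (rank 9416) at −43 bp in replicate 2 and 48.2 (rank 15995) at −27 bp in replicate 3. A second summit in each replicate list, at −257 bp with 30.2 in replicate 2 and at −266 bp with 27.2 in replicate 3, fell inside the neighbouring gene CG13359. Among the 1728 genes of like length 41.3% had any IDR summit.

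CycE, the cyclin that activates Cdk2 at S phase entry, carried a summit with a signal between those of the strongest Dp and E2f1 summits, but the 500-bp rule left it outside the promoter count. The gene (FBgn0010382, 2L:15727581-15748150, minus strand) has TSSs at 15731784, 15746610 and 15748150. The summit, at 2L:15747113 in a 1222-bp intron, had a signal of 1199 (rank 621) and stood 503 bp upstream of the middle TSS and 1037 bp downstream of the first. Signals were 463 in replicate 2 (rank 465, −512 bp) and 721 in replicate 3 (rank 750, −464 bp), so the same peak was inside the 500-bp window in replicate 3 and outside it in replicate 2. The summits just inside that limit were at −476 bp and +435 bp at Dp and at −459 bp at dap.

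A weaker CycE summit in a 4492-bp intron had a signal of 253 (rank 4932), with 103 in replicate 2 and 154 in replicate 3. At the first CycE TSS the whole-series list held a summit of 40.5 (rank 23643) at −98 bp, and replicate 3 one of 35.5. Both lay inside the antisense gene asRNA:CR44866, the whole-series one 247 bp downstream of that gene's TSS. Having 2 or more IDR summits was common at this length, in 212 of 539 genes (39.3%).

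CycD, the partner of Cdk4 (FBgn0010315, X:15906822-15909676, minus strand), came closest to the IDR list of the 3 genes without a summit there. Its whole-series promoter summit had a signal of 143 at −62 bp and rank 8610, just below the last IDR peak at rank 8170 and signal 150.5. Replicate 3 had 75.0 at −13 bp (rank 11187), and replicate 2 had no promoter summit that close to the TSS. A weaker summit further upstream was in all 3 longer lists, with 44.2 at −276 bp in the whole-series list, 26.0 at −264 bp in replicate 2 (rank 17703) and 39.9 at −216 bp in replicate 3. Any IDR summit was present in 32.1% of the 2428 genes of like length.

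Cdk2, the kinase partner of CycE, had a single IDR summit at its start. The gene (FBgn0004107, 3R:20735623-20738414, plus strand) has 1 TSS position, and the summit lay 20 bp upstream of it with a signal of 372 (rank 3308). Signals were 97.9 in replicate 2 (rank 4369) and 283 in replicate 3 (rank 2893), with summits at −21 bp and −16 bp. The summit was also at −320 bp from the start of the microRNA gene mir-995. The DRE printed above for Cdk2 spans 20735562-20735569, with its centre at −37.5 bp from the summit.

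Cdk4, the kinase partner of CycD (FBgn0016131, 2R:16579470-16585448, plus strand), has 5 TSS positions and no IDR promoter summit. Inside the gene or within 500 bp of a TSS it had a single IDR summit, with a signal of 173 (rank 7163). That summit lay 3204 bp downstream of the nearest TSS in a 1115-bp intron, with 146 in replicate 3 (rank 5935). The nearest replicate 2 summit was 947 bp away. With a 1000-bp window Cdk4 gained an IDR promoter summit, so its absence from the promoter count depends on the 500-bp rule. In the whole-series list the Cdk4 promoter summits within 500 bp of a TSS were too weak for the IDR list. The strongest lay downstream of the TSS at 16580106 in the whole-series list (98.4 at +240 bp) and in replicate 3 (89.6 at +270 bp), where replicate 2 had 28.7 at +102 bp. The strongest of replicate 2 lay upstream of the first TSS at 16579470, with 88.4 at −492 bp, and replicate 3 had 57.5 at −422 bp from that TSS. The noncoding gene asRNA:CR44375 lies within the gene.

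The inhibitor gene dap (dacapo, FBgn0010316, 2R:9712321-9716256, plus strand) had a pair of IDR summits 253 bp apart upstream of its single TSS position. They had signals of 279 (rank 4440) at −459 bp and 259 (rank 4809) at −206 bp. Replicate 3 also resolved both, with 147 and 140. Replicate 2 had a single summit between them, at −300 bp with a signal of 168 (rank 2322), which is 159 bp from the outer IDR summit and 94 bp from the inner one. In 121 of the 1878 genes of like length (6.44%) there were 2 or more IDR summits.

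**Figure D3:**
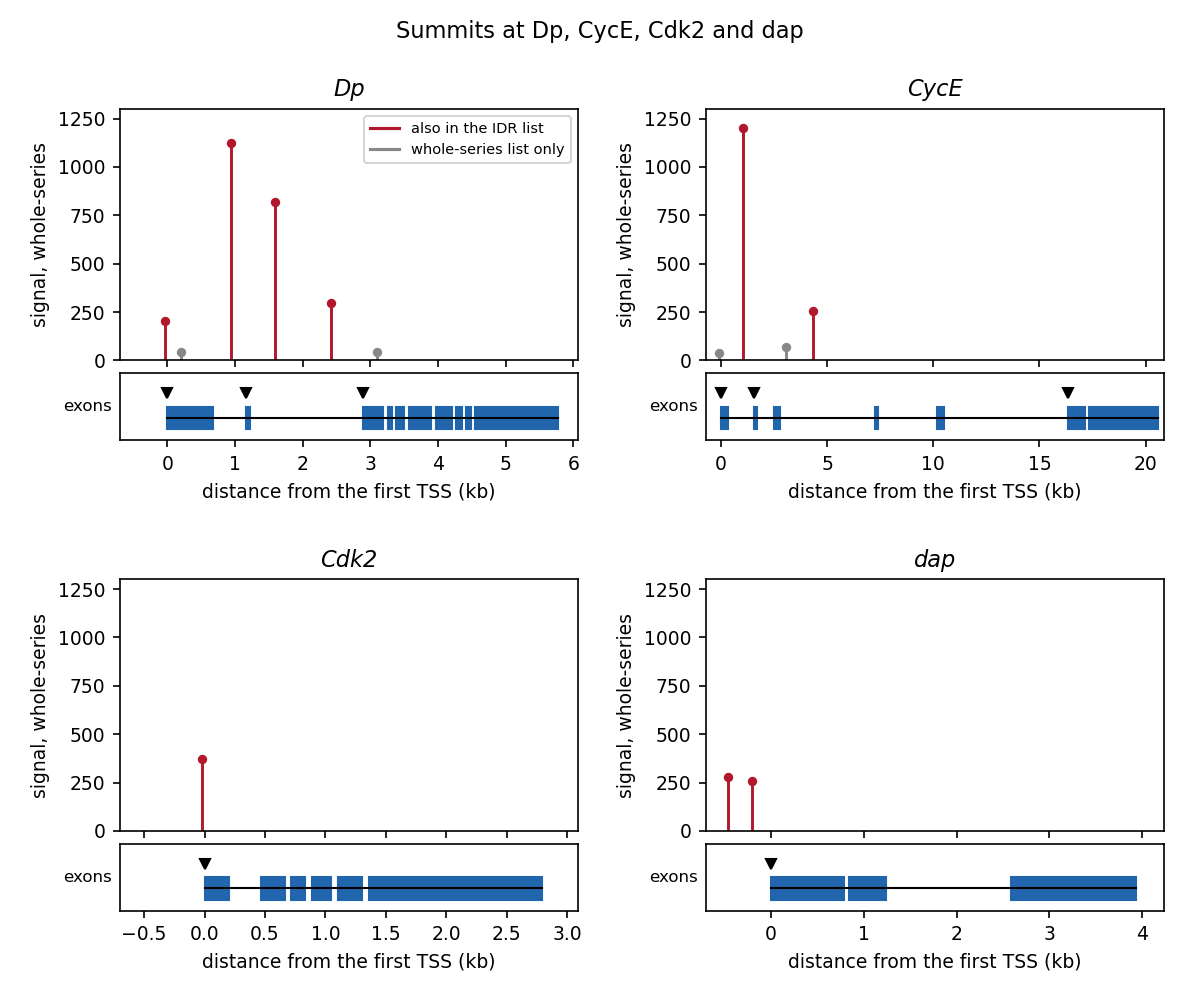
Whole-series summits along Dp, CycE, Cdk2 and dap (horizontal axis in kb from the first TSS, transcription to the right; stem height is signal on the authors' scale; red stems are also in the IDR list, boxes are exons, triangles are TSSs). Dp has 4 red stems around its TSSs, the tall CycE stem stands between the TSSs on the left, and Cdk2 and dap have stems at or upstream of a single TSS.

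Replicates repeated most of these summits. A summit of both replicate lists lay within 100 bp of 19 of the 21, beside 91.0% of all IDR summits (7431 of 8170). All 21 were matched in replicate 3, and the exceptions in replicate 2 were the Cdk4 intron summit and the outer dap summit. Since the authors made the IDR list from the replicate lists, this is a description of the lists. The 6 summits in the strongest 10% ranked between 179 and 649 in replicate 2 and between 442 and 814 in replicate 3.

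**Figure D4:**
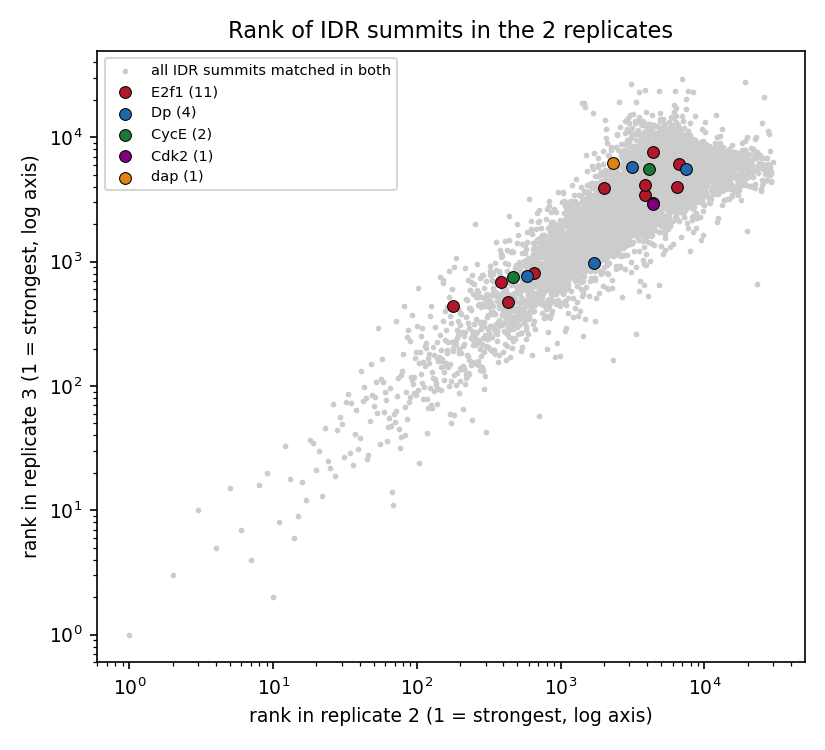
Rank of IDR summits in replicate 2 (horizontal) and replicate 3 (vertical), both log axes with 1 the strongest; coloured points are the 19 matched summits of E2f1, Dp, CycE, Cdk2 and dap, and grey points are all matched IDR summits. The 6 strongest coloured points lie together at ranks below 1000 in both replicates, inside the grey cloud.

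The DNA at these summits was rich in A and T, as at IDR summits in general. Over 201 bp centred on the summit the median was 69.2% A+T (45.3% to 82.6%), against 54.5% in windows 500 bp to either side, and 20 of the 21 exceeded their own flanks. Over all IDR summits the medians were 66.7% at the summit and 56.0% in the flanks, and 82.3% of summits exceeded their flanks. The highest value was at the strong CycE summit (82.6%, flanks 45.5%). The strongest E2f1 summit had 77.6% with 50.2% in its flanks, and the exception was an E2f1 summit with a signal of 271, at 62.2% against 69.9%. At the other end stood the Dp summit shared with Fsn, at 45.3%. The longest unbroken run of A and T bases had a median of 13 bases (6 to 29) at the 21 summits, 12 at all IDR summits and 9 in the flank of each on the side of higher coordinates.

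**Figure D5:**
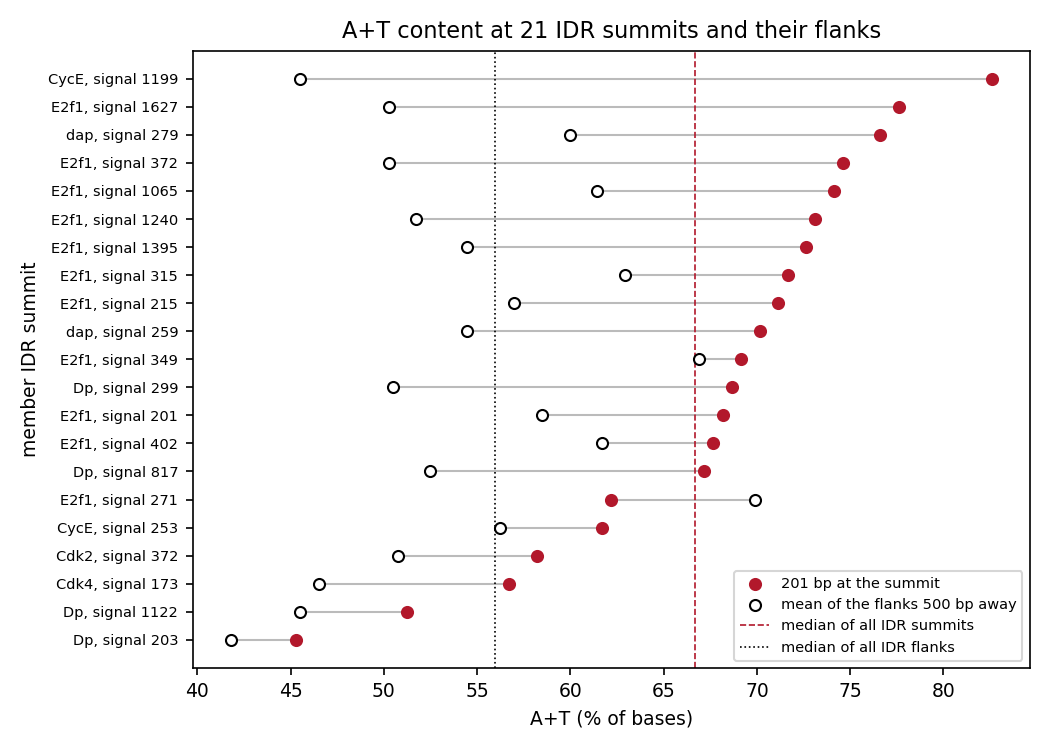
A+T content in percent of the 201 bp at each of the 21 IDR summits (filled) and of its flanks 500 bp away (open), ordered by the summit value, with the medians of all IDR summits (dashed) and their flanks (dotted). In 20 of 21 rows the filled point lies to the right of the open one.

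Words known from fly promoters were counted within 100 bp of the summits, on both strands. TATCGATA (DRE) was found at 1 of 21, the Cdk2 summit, beside 2.8% of all IDR summits and 6.42% of 19630 windows of the same length centred on protein-coding TSSs. GGTCACACT (Motif 1) was at none, beside 1.41% of IDR summits and 4.42% of TSS windows. Likewise CACGTG (E-box) was at none (1.52% and 2.79%), and none held TTTCCCGC, TTTGGCGC, TTTCGCGC or TTTGCCGC, which are E2F binding words (2.64% and 4.75%). GAGAG was at 4 of 21, beside 20.9% of IDR summits and 24.9% of TSS windows. TATAAA was at 10 of 21, beside 38.5% and 26.8%. The word TTTAAAA, picked for these data because it was common at the IDR summits of other genes (25.4% of 8149, against 8.96% of their flanks on the side of higher coordinates), was at 10 of 21 beside 25.5% of all IDR summits and 13.6% of TSS windows. Within 50 bp of the summit TATAAA was at 6 of 21 and TTTAAAA at 5. TTTAAAA and TATAAA both consist of A and T, and whether A+T content moves with these counts was not tested. Where a word is absent, only these letters are missing from the window.

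Genes of the same pathway or of the same cyclin and Cdk families were read from 5 lists, and not all act at G1 to S. Of 46 found in the annotation, 21 (45.7%) had an IDR promoter summit, beside the 26.9% of all protein-coding genes given above. The lists were written with earlier results of these data known, so their counts are no independent evidence.

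Among 7 genes of the repressor complex that Rbf and E2f2 belong to, 2 had an IDR promoter summit. They were Rbf2, the other fly Rb-family gene (603 at −87 bp, shared with CG32856), and mip130, which encodes a complex subunit (373 at −349 bp, in a window shared with Edem1). The histone-binding gene Caf1-55, lin-52 and mip120 were among those with none. Of 16 other cyclin and Cdk genes 7 had one, and the strongest was at Cdk12, a kinase of RNA polymerase II (789 at −258 bp, shared with SAK). The mitotic kinase gene Cdk1 had 491 at −234 bp, shared with mRpS7. Cdk8, a kinase of the Mediator complex, had 231, CycG had 205 in a window shared with Med, and CycH had 177, while Cdk5, Cdk7 and Cdk9 had none.

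Of 10 genes for ubiquitin ligase components 5 had an IDR promoter summit. The strongest was at ago, the F-box gene whose product marks cyclin E for degradation (453 at −158 bp, shared with CG1265). The others were fzr (284), an activator of the anaphase-promoting complex, Cul1 (236, shared with CG12159), fzy (198, shared with cni) and Cul4 (160, shared with udd), and l(2)dtl, pic and Roc1a had none. For Cdk8 above and for Cul4 replicate 2 had no summit within 100 bp.

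Of the 3 growth regulators Max (490 at −111 bp, shared with Mettl5 and CG42374) and Mnt (389 at −244 bp, with the nearest replicate 2 summit 101 bp away) had an IDR promoter summit. Myc, which binds DNA as a pair with Max, had none at its promoters but 2 inside the gene. Mnt, a repressor that also pairs with Max, had 15 IDR summits in all, a count not set beside genes of its length. Of 10 genes known as E2F targets 5 had an IDR promoter summit. RnrS, the small subunit of ribonucleotide reductase, had 1102 at −198 bp, shared with CG34231, which is close to the level at Dp. The replicative helicase gene Mcm2 had 777 at −193 bp, shared with RPA1. The licensing gene dup had 306 in a window shared with SRPK, its inhibitor gene geminin had 227 and the polymerase gene PolA1 had 168. Cdc6, Orc1 and PCNA had none.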

How the data were processed

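ChIP-seq peak lists of CG3032-eGFP prepupae (2 replicates, 1 group) were used as deposited by the authors, on dm6 per the labels. Per the file headers, replicate lists were called on each alignment with a control, the whole-series list on both alignments, and the IDR list came from those 3. Not given in the sources used here: the aligner, peak caller, signal scale and IDR threshold. The deposited signal value and the deposited −log10 q-value are the authors'. The q-values reached a ceiling at all 8170 IDR peaks, so ranks follow signal. Depth is unknown.

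Genes came from the Ensembl annotation of BDGP6.54, release 115, and sequence from RefSeq's copy of the same assembly. No peak ran past a chromosome end of that copy, and coordinates are 1-based. Summits inside a gene or within 500 bp of a TSS were assigned to it, so a summit can belong to several genes. Scripts ran in Python 3.11.15 with numpy 2.4.6 and pandas 2.3.3 and were tested on simulated data. No test between groups was possible, and counts are set beside the share over all genes or summits. The members, lists and motifs were chosen with earlier results of these data known. Of 47 list symbols CDC45L had no match. Genes named are the 9 members, genes starting within 500 bp of or overlapping a member summit, in each list up to 5 genes with the strongest IDR promoter summit and the 3 alphabetically earliest without one, and the 2 promoter summits above and 2 below that of Dp in rank; other genes that share a listed promoter summit were named after their values were seen. No sequence is printed for genes on chromosome arm 2R. Alternatives covered the TSS window, nearest-gene assignment, the peak set, the matching distance and the motif window.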

Additional observations from a re-analysis of the deposited data

How the results depend on the processing

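Of 57 alternative values, counts and promoter signals together, 46 stayed within 1.5 times the main value and 11 moved. With a 200-bp window 2 of the 9 genes had an IDR promoter summit (Dp and Cdk2, with all genes at 19.5%), and Dp's strongest was then the summit shared with Fsn (203). With 1000 bp there were 6 (CycE and Cdk4 added, 30.6%), and with all whole-series peaks 9. The stronger 4085 IDR peaks left 3 such genes (14.8% of all genes) and 12 of the 21 summits. Using the 8170 strongest peaks of replicate 3 alone gave 5 genes (CycE added, 26.6%) and of replicate 2 alone 6 (E2f2 and Cdk4 added, 27.7%), a range of 5 to 6, and 24 to 25 summits. Within 50 bp 16 summits matched both replicates (75.2% of all IDR summits) and within 200 bp 20 (95.4%). At 200 bp the list counts were 1 (repressor complex), 3 (ubiquitin ligase) and 1 (growth). With the stronger IDR peaks they were 1 for the ubiquitin ligase, 2 for the other cyclin and Cdk and 3 for the E2F target genes. Within 50 bp TATAAA was at 6 summits and TTTAAAA at 5, the latter not among the 57 values. For the moved values the cause was not tested. No paired analysis was possible because there was 1 group. The 2 replicates, the unknown depth and the undefined signal scale limit every value.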
